A study of Sus scrofa with 12 samples.

Results

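The RNAs of 6 genes of pig chromosome 13, MBNL1, ARPP21, FOXP1, ZBTB20, FILIP1L and PDZRN3, were followed through the chromatin-associated RNA (caRNA) lists of longissimus muscle, together with the H3K27ac loops at the same genes. The members were chosen by name, as rows of the caRNA lists that carry 1 of these 6 symbols, and their loops as those reaching to 1 kb or less from either end of the gene. They were 6 of the 737 RNAs with a gene name or identifier listed in any library, and of 1122 RNAs when unnamed transcripts were included. Of the 51 named RNAs from chromosome 13, 13 were listed in all 4 libraries (25.5%), and the members among these were MBNL1 and ARPP21. Over the whole genome 41.8% of named RNAs were listed in all 4 libraries.

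The study compared Large White (LW), which the labels call a commercial lean pig breed, with Meishan (MS), called a Chinese local pig breed. The muscle came from male piglets at 2 weeks of age, with no treatment in either breed. GRID-seq joins an RNA through a linker to the DNA it lies next to, after crosslinking and AluI digestion, and BL-HiChIP joins DNA ends that lie close together and enriches them with an antibody against H3K27ac, a mark of active promoters and enhancers. Each assay had 2 LW and 2 MS libraries, 8 in all. The methods speak of 2 male piglets without saying how they were divided over breeds and replicates, so the p-values measure the spread between these libraries, which may be technical. In bulk muscle, fewer cells of a type and less RNA per cell cannot be told apart.

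All 6 genes encode regulatory or scaffold proteins. MBNL1 binds RNA and directs alternative splicing during muscle maturation, and its loss to expanded CUG repeats is central to myotonic dystrophy. ARPP21 is another RNA-binding protein, FOXP1 and ZBTB20 are transcription factors, FILIP1L is a protein related to the filamin-interacting protein FILIP1, and PDZRN3 is a ubiquitin ligase with PDZ domains known at the neuromuscular synapse. An RNA caught by GRID-seq is largely nascent or nuclear RNA, and most such RNAs lie over their own gene.

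The GRID-seq lists held from 7172517 RNA reads in MS replicate 1 to 9943666 in LW replicate 2. They named 571 and 681 RNAs in LW and 519 and 649 in MS, unnamed transcripts included. The BL-HiChIP lists held 57028 and 43282 loops in LW and 45061 and 33353 in MS. Muscle fibre markers fitted the labelled tissue in part. Of 12 such genes, 7 were listed in all 4 GRID-seq libraries, among them TTN, NEB and MYH7, and they made up 144895 and 132312 RPM (reads scaled to the library total) in LW and 125943 and 114648 in MS. Of these 7, TTN and NEB reads were higher in LW and CKM, MYH7, ATP2A1, ACTN2 and TNNT3 reads lower, with log2 differences from -0.70 to 0.70 (edgeR, adjusted p under 0.05), of which TNNT3 turned upward when scaled by total reads. ACTA1, MYH1, MYH2, MYH4 and RYR1 were not listed. Of 5 fibroblast markers 3 were listed, with 1262 and 1079 RPM in LW and 923 and 1495 in MS, and 2 were tested and lower in LW, COL1A1 and COL1A2. None of 2 satellite cell, 5 adipocyte, 4 endothelial, 3 immune or blood and 3 Schwann cell markers was listed.

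On the Sscrofa11.1 build, the lists place ARPP21 (ENSSSCG00000011238) at chr13:20934872-21088421 on the plus strand. FOXP1 (ENSSSCG00000027675) lies at chr13:52347850-52974261 and PDZRN3 (ENSSSCG00000011521) at chr13:54659590-54904900, both on the minus strand and 1.69 Mb apart. MBNL1 (ENSSSCG00000011720) lies at chr13:92491809-92696233, ZBTB20 (ENSSSCG00000026113) at chr13:144855977-145754184 and FILIP1L (ENSSSCG00000011972) at chr13:158890381-159191761, all on the plus strand. They were long genes, from 154 kb for ARPP21 to 898 kb for ZBTB20. Because a read was assigned to a whole gene, exonic and intronic reads were not told apart. Within FILIP1L, a shorter RNA of the same strand, ENSSSCG00000049101 (chr13:158852076-158968370), was listed in all 4 libraries with 12963 to 22705 reads, so reads of the shared stretch could belong to either. PDZRN3 held ENSSSCG00000047927, with 581 reads in MS replicate 2 and no entry in the other libraries.

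The 2 RNA-binding protein genes were the members listed in every library, and their RNAs differed between breeds in opposite directions. MBNL1 RNA had 133456 and 147039 reads in LW against 61753 and 73975 in MS. Both LW libraries lay above both MS libraries, at 15549 ± 1078 RPM in LW and 8247 ± 512 in MS (mean ± SD, n = 2 each). Per kilobase of gene these were 653 and 719 reads in LW and 302 and 362 in MS. MBNL1 ranked 7th in read number among all listed RNAs in both LW libraries and 13th and 12th in MS, and 2nd among the RNAs of chromosome 13 in all 4 libraries.

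ARPP21 RNA had 21961 and 24285 reads in LW against 27348 and 32579 in MS. This was 2563 ± 171 RPM in LW and 3643 ± 241 in MS (mean ± SD, n = 2 each), and here both MS libraries lay above both LW libraries. Of the 308 named RNAs in all 4 libraries, 41.2% had the pattern of MBNL1 and 35.4% that of ARPP21. On the scale of reads per kilobase, ARPP21 had 143 and 158 in LW and 178 and 212 in MS, well below MBNL1 in every library.

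In edgeR's quasi-likelihood test over the 308 named RNAs listed in all 4 libraries, MBNL1 reads were higher in LW by 0.88 on the log2 scale (SE 0.0072, a fold of 1.84, adjusted p = 1.9e-06). ARPP21 reads were lower in LW by the log2 difference -0.54 (SE 0.0070, adjusted p = 2.2e-06). These SEs were derived from the log2 difference and the F statistic of the test, and they depended on the setting. For MBNL1 the SE was 0.0104 in DESeq2, 0.0177 with scaling by total reads and 0.0042 with replicate number in the fit. For ARPP21 these were 0.0154, 0.0186 and 0.0235. The same test called 136 RNAs higher in LW (44.2%) and 131 higher in MS (42.5%), together 86.7% of those tested. Scaling by total reads in place of TMM moved the median RNA from 0.002 to 0.13 and gave 161 and 99 calls, with MBNL1 at 1.01 and ARPP21 at -0.41. With most RNAs called, a call by itself did not set a member apart from the other RNAs. MBNL1 had the 19th largest difference among RNAs higher in LW and the 46th in either direction. After scaling by the median ratio, 77.9% of the 308 RNAs in the LW pair and 86.0% in the MS pair agreed within the 95% counting interval, against 10.1% and 9.42% between breeds. Over all 308 RNAs the replicates still differed by more than counting error, with chi-square 17178 in LW and 25222 in MS on 307 degrees of freedom, and the 5 RNAs furthest apart were the same in both pairs.

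The 2 transcription factor RNAs were listed in LW libraries and not in MS libraries. FOXP1, which regulates differentiation in many tissues, had 37103 and 40184 reads in LW, or 59.2 and 64.1 per kilobase. ZBTB20, a zinc finger repressor, had 64346 and 70545 reads, or 71.6 and 78.5 per kilobase. Of the 737 named RNAs, 69 showed this pattern of both LW and neither MS library (9.36%), and on chromosome 13 it was 3 of 51 (5.88%). Both densities lay near the bottom of the lists. The least dense RNA listed had 37.7 to 44.1 reads per kilobase depending on the library, and 12 of 460 named RNAs in MS replicate 1 and 25 of 571 in MS replicate 2 were less dense than FOXP1 had been in LW. For ZBTB20 the corresponding numbers were 34 of 460 and 39 of 571. An RNA missing from a list is not shown to be absent from that library, so no fold is given for these genes.

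PDZRN3 showed the reverse pattern, with 30437 and 35717 reads in MS, 124 and 146 per kilobase, and no entry in LW. Of all named RNAs 85 were listed in both MS and neither LW library (11.5%), and on chromosome 13 it was 9 of 51 (17.6%). In the LW lists, 140 of 459 and 185 of 545 named RNAs were less dense than PDZRN3 had been in MS. FILIP1L was listed in 3 libraries, with 41873 and 47037 reads in LW and 31149 in MS replicate 2, or 139, 156 and 103 reads per kilobase. The pattern of 3 of 4 libraries was found for 99 RNAs (13.4%). In MS replicate 1, where FILIP1L had no entry, a neighbouring RNA on the same strand 349 kb downstream, ENSSSCG00000039367, was listed with 24149 reads, and that RNA was in no other library. In the plot of reads per kilobase, the member with the highest density was MBNL1 in all 4 libraries, and the order of FILIP1L and ARPP21 in LW did not differ beyond the spread between libraries.

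**Figure D1:**
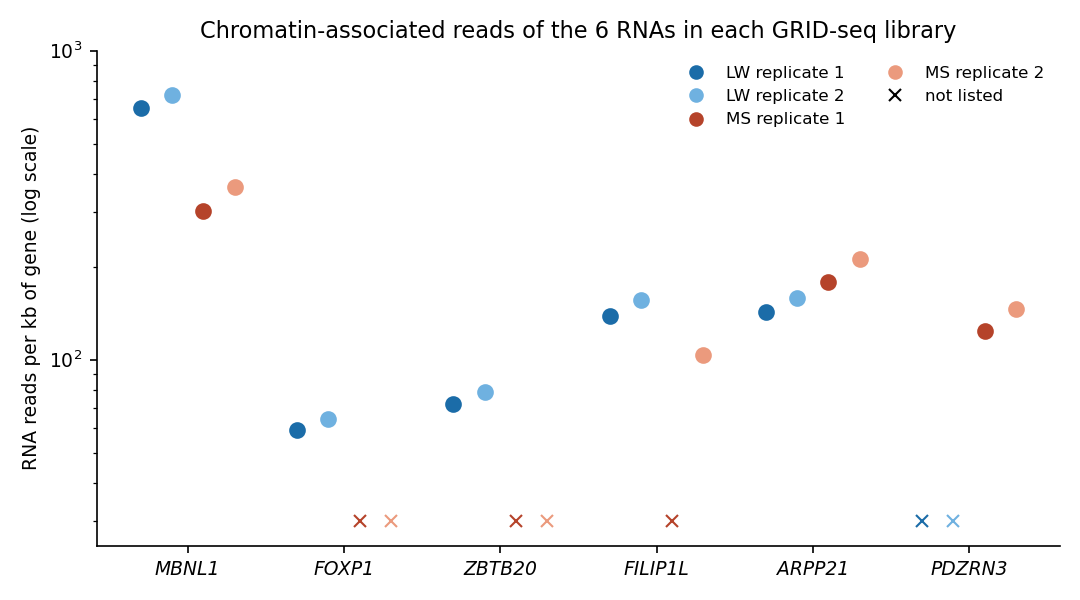
RNA reads per kilobase of gene (log axis) for the 6 members in the 4 GRID-seq libraries, 1 point per library, LW and MS in separate colours, and crosses at the foot mark libraries that do not list the RNA and have no value. MBNL1 lay at 653 and 719 in LW and 302 and 362 in MS, while FOXP1 and ZBTB20 had LW points alone and PDZRN3 MS points alone.

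The next measure was how far each RNA reached along its chromosome. Signal within 10 kb of the gene was taken as local, signal elsewhere on chromosome 13 as cis, and signal on other chromosomes as trans. The lists give a background-corrected signal per 1-kb bin, relative to the reads of the RNA, from 0.02 upwards. Neighbouring bins are not independent, since MBNL1 bins on other chromosomes came in runs with a median length of 23 bins in every library.

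MBNL1 RNA spread further over its chromosome than any other member. It covered 22691 and 32374 cis bins in LW and 6097 and 9813 in MS. That made it the RNA with most cis bins of all listed RNAs in both LW libraries, and the 6th and 5th in MS. MBNL1 alone held 55.3% and 54.1% of all cis bins of chromosome 13 RNAs in LW, with 20.1% and 18.7% of their reads, and 27.5% and 27.04% of the bins in MS, with 11.09% and 9.79% of the reads. The LW libraries lay above the MS libraries without overlap. Among the tested RNAs, 42.5% had both LW libraries above both MS libraries in cis bins and 10.7% had the reverse.

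In limma on log2(bins + 1), the cis reach of MBNL1 differed by 1.81 (LW minus MS, SE 0.40), with an adjusted p = 0.165 over 308 RNAs, so that the difference did not pass the threshold. One RNA in 308 did (0.325%), the spliceosomal U5 RNA, named here after its value was seen, and at unadjusted p under 0.05 there were 54 RNAs higher in LW (17.5%), MBNL1 among them, and 15 higher in MS (4.87%). The median difference over all RNAs was 0.48, against which MBNL1 ranked 29th of 308 towards LW. After quantile normalization of the libraries MBNL1 differed by 1.29 (adjusted p = 0.0595). Read number moved with reach. Per 1000 of its own reads MBNL1 had 170 and 220 cis bins in LW and 98.7 and 133 in MS, a log2 difference of 0.75 (adjusted p = 0.279), and how much of the reach difference goes with read number was not tested further.

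Most of the MBNL1 signal lay in cis. Of its signal 78.1% and 81.5% was cis in LW, against 60.1% and 68.2% in MS, and its local share 19.4% and 15.8% against 39.3% and 30.7%. The difference in cis share was 15.6 percentage points (SE 3.80, limma adjusted p = 0.171). No RNA passed the adjusted threshold, while 68 RNAs (22.1%), MBNL1 included, were higher in LW and 8 (2.60%) in MS at unadjusted p under 0.05. Both LW libraries lay above both MS libraries for 43.5% of RNAs and the reverse held for 10.1%. Counted as a share of bins in place of signal, the difference turned to -2.33 points (adjusted p = 0.577). The direction of the difference thus depended on the measure, and MBNL1 bins were mostly cis in both, at 91.9% and 92.1% in LW and 94.7% and 94.0% in MS. Within each library, the cis share of MBNL1 signal was higher than that of 99.1% to 99.8% of named RNAs, for which the medians were 9.48% and 18.2% (LW) and 6.99% and 10.8% (MS).

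The reach of MBNL1 was long as well as wide. Signal more than 10 Mb from the gene made up 37.7% and 42.7% of the total in LW and 22.5% and 30.2% in MS. The median cis bin lay 23432 and 24715 kb from the gene in LW and 20481 and 23264 kb in MS, so the typical distance differed less between breeds than the number of bins. As shares of signal, the breeds differed on the side before the gene, with 44.4% and 46.7% for LW against 25.7% and 33.1% for MS. The share past its end was 33.7% and 34.8% for LW against 34.5% and 35.2% for MS. Counted in cis bins, LW lay above MS on both sides without overlap. Before the gene LW had 12167 and 17759 bins, compared with 2185 and 4467 for MS. Past its end LW had 10524 and 14615, compared with 3912 and 5346. The side of the difference thus depended on the measure, and it was not tested. MBNL1 was also the member with most trans contact, on 15 and 16 other chromosomes in LW and on 5 and 9 in MS, but trans signal stayed at 2.52% and 2.66% in LW and 0.534% and 1.09% in MS.

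**Figure D2:**
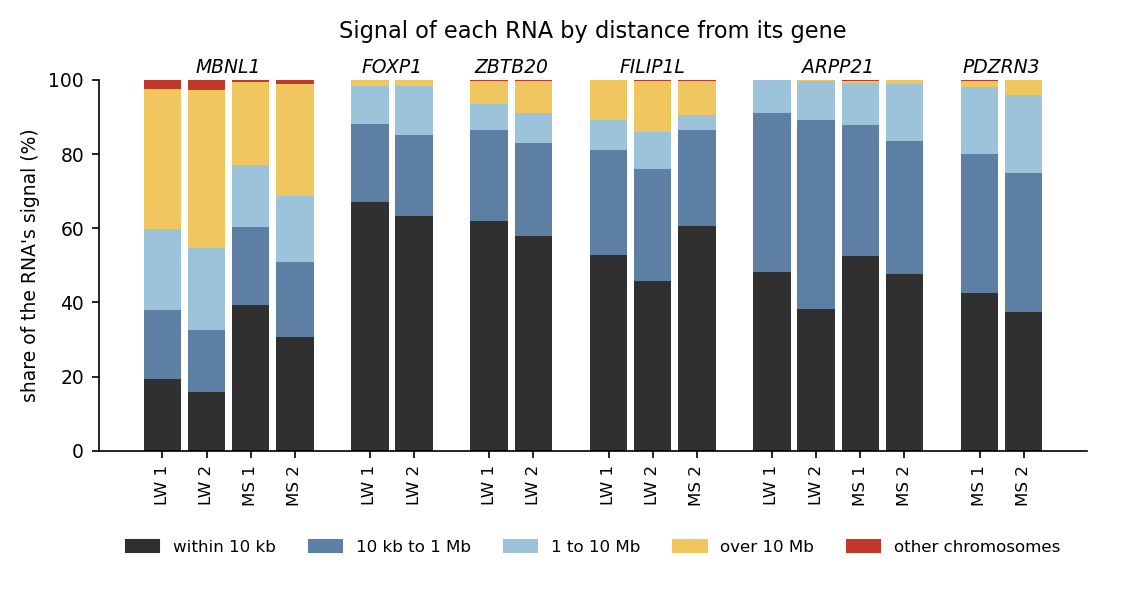
Share of the signal of each member RNA (percent, stacked bars that each sum to 100) that lay within 10 kb of the gene, from 10 kb to 1 Mb, from 1 to 10 Mb, over 10 Mb away on chromosome 13, and on other chromosomes, per GRID-seq library that lists it. MBNL1 had 22.5% to 42.7% of its signal over 10 Mb away, against 0% to 13.8% for the other members.

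Seen in windows of 1 Mb, MBNL1 bins fell in 129 and 135 of the 209 windows of chromosome 13 in LW and in 65 and 88 in MS. Of these, 54 windows held MBNL1 RNA in all 4 libraries and 57 held it in none. Over the 188 windows more than 10 Mb from the gene, the number of bins per window correlated at r = 0.936 between the LW libraries and r = 0.906 between the MS libraries, and at 0.638 to 0.757 across breeds. These correlations describe windows of the same chromosome that share their gene density and smoothing, so no p is given.

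Among the 20 windows with most MBNL1 bins beyond 10 Mb in each library, 7 were common to all 4 libraries. The fullest in LW was that from 131 to 132 Mb, with 736 and 833 bins in LW and 269 and 365 in MS. It holds 8 genes, among them HES1, a transcriptional repressor of the Notch pathway. The bins of a window were not assigned to single genes. The window from 125 to 126 Mb, with BCL6 and part of LPP among its 6 genes, had 309 and 499 bins in LW. In MS it had 410 and 459, and here the breeds overlapped. The remaining ones lay at 67, 75, 115, 126 and 132 Mb and included TBL1XR1 at 115 Mb, with 404 and 510 bins in LW and 226 and 280 in MS. At the resolution of single bins the replicates shared less. Of the cis bins of LW replicate 1, 62.4% were listed in LW replicate 2, and of those of replicate 2, 43.7% in replicate 1, while for the MS libraries it was 63.8% and 39.6%.

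**Figure D3:**
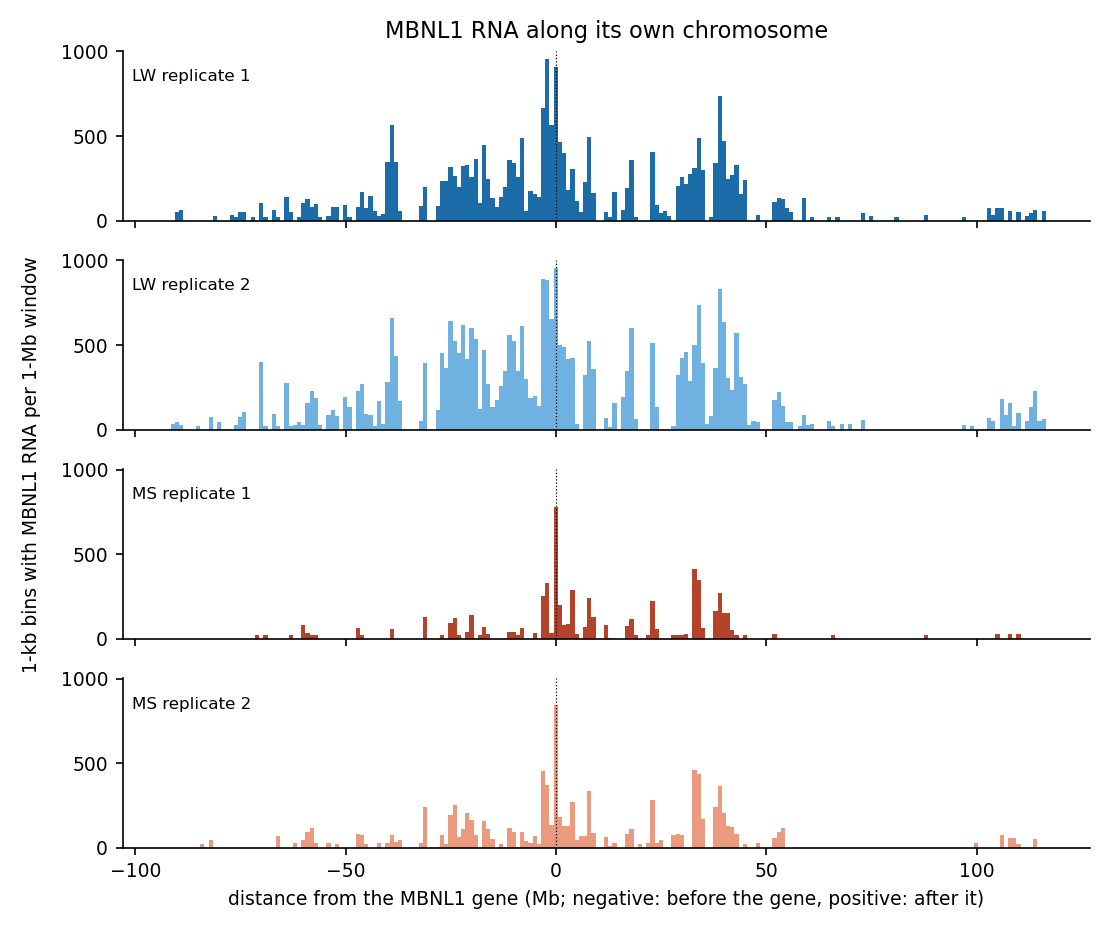
Number of 1-kb bins with MBNL1 RNA per 1-Mb window, against the distance of the window from the MBNL1 gene in Mb along chromosome 13, with 1 panel per GRID-seq library. The LW libraries filled 129 and 135 windows and the MS libraries 65 and 88, with shared maxima far from the gene.

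ARPP21 had the shortest median cis distance of the members listed in each library. It covered 1374 and 1885 cis bins in LW and 1421 and 1839 in MS, and the breeds overlapped, with a log2 difference of -0.01 (SE 0.31, limma adjusted p = 1.0). This stood beside its read difference towards MS, so that per 1000 reads it had 62.6 and 77.6 cis bins in LW and 52.0 and 56.4 in MS. ARPP21 signal over 10 Mb away was at most 1.00% in any library, and its cis share, 51.9% and 61.8% in LW against 47.2% and 52.4% in MS, differed by 7.01 points (SE 4.82, adjusted p = 0.506). Its median cis bin lay 570 and 664 kb from the gene in LW and 931 and 1281 kb in MS. These values did not overlap, but the difference was not tested.

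FOXP1 kept most of its signal on its own gene, with a local share of 67.0% and 63.4% in LW, and covered 2579 and 3261 cis bins with a median distance of 1074 and 1109 kb. ZBTB20 likewise had 62.0% and 57.9% local signal, but its cis bins, 4458 and 6362, lay further out, at a median of 4776 and 8075 kb, with 6.08% and 8.56% of the signal over 10 Mb away. The factors thus had similar local shares and a different depth of reach. FILIP1L covered 2719 and 3811 cis bins in LW and 1795 in MS replicate 2, with 10.9%, 13.8% and 9.21% of the signal over 10 Mb away, the most after MBNL1. PDZRN3 had 2711 and 3625 cis bins in MS. Its cis share of 57.1% and 62.6% was above that of 98.9% and 99.3% of named RNAs in those libraries, next to MBNL1 among the members.

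FOXP1 and PDZRN3 are neighbours, and the RNA of each lay over the gene of the other. In LW, FOXP1 RNA was found on 191 and 219 of the 246 bins of the PDZRN3 gene, or 77.6% and 89.0%, where it covered 1.24% and 1.57% of chromosome 13 as a whole in cis. In MS, PDZRN3 RNA was found on 351 and 468 of the 628 bins of the FOXP1 gene, or 55.9% and 74.5%, where its cis cover of the chromosome was 1.30% and 1.74%. These contacts carried 6.11% and 6.10% of the cis signal of FOXP1 and 7.29% and 8.94% of that of PDZRN3.

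The interval between the genes, with 12 RefSeq genes of which 7 are protein coding, was also filled by both RNAs. FOXP1 RNA covered 73.2% and 82.8% of its bins in LW and PDZRN3 RNA 78.7% and 86.3% in MS. A stretch as long as the partner gene and equally far away on the opposite side was covered less, at 37.5% and 26.5% for FOXP1 and 4.47% and 0% for PDZRN3. Both RNAs were thus lopsided towards each other. FOXP1 had 27.05% and 27.02% of its signal on the side of PDZRN3 in LW and 5.83% and 9.44% on the other, and PDZRN3 had 41.6% and 46.1% of its signal on the side of FOXP1 and 15.5% and 16.5% on the other.

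The territories of both RNAs overlapped in large part. Of 2524 bins with FOXP1 RNA in both LW libraries and 2447 bins with PDZRN3 RNA in both MS libraries, 1586 were the same, which is 62.8% of the FOXP1 bins and 64.8% of the PDZRN3 bins. Outside both genes the overlap was 1111 bins, 64.6% of 1720 and 58.4% of 1902. No library lists both RNAs, so this comparison is across breeds, and whether they share the interval within 1 breed was not measured.

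**Figure D4:**
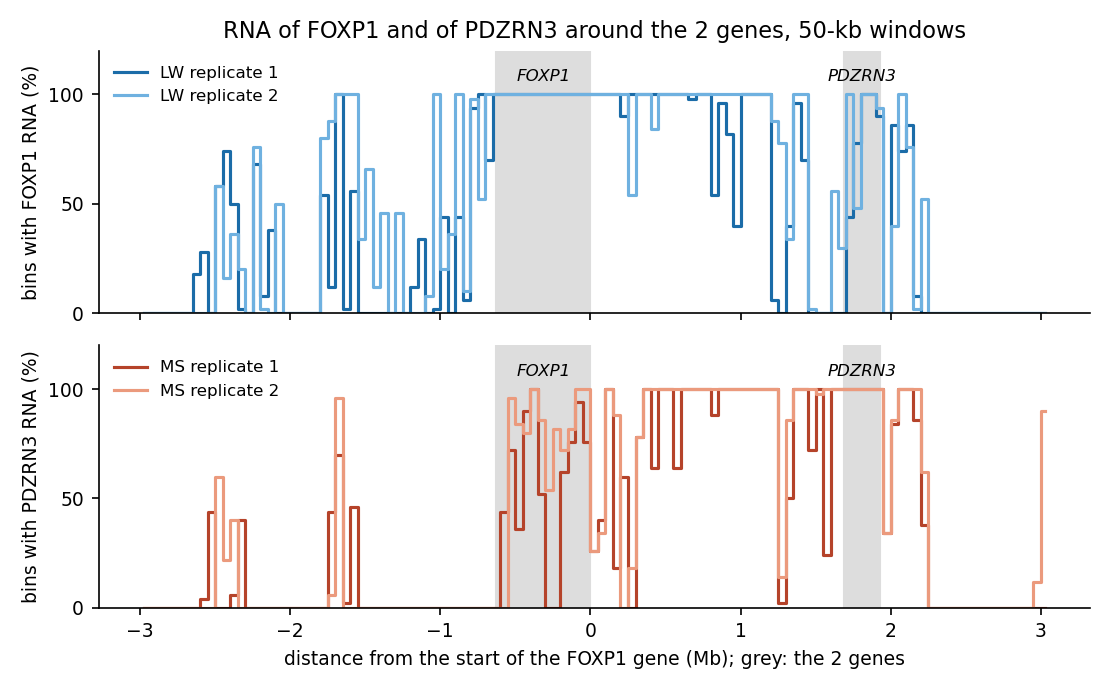
Percent of 1-kb bins with FOXP1 RNA in the LW libraries (upper panel) and with PDZRN3 RNA in the MS libraries (lower panel), in windows of 50 kb, against the distance in Mb from the start of the FOXP1 gene, with both genes in grey. FOXP1 RNA extended across the 1.69 Mb gap onto PDZRN3, and PDZRN3 RNA across the same gap onto FOXP1.

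MBNL1 RNA was found on other members' genes as well. In LW it covered 54.9% and 42.5% of the FOXP1 bins and 35.4% and 65.9% of the PDZRN3 bins, against 10.9% and 15.5% of chromosome 13. In MS the FOXP1 gene had 0% and 4.46% and the PDZRN3 gene 0% and 10.6%, against 2.93% and 4.71%. On the ZBTB20 gene MBNL1 RNA covered 9.89% and 21.0% in LW and 3.22% and 13.1% in MS. On the FILIP1L and ARPP21 genes it was listed in replicate 1 of each breed and not in replicate 2. FOXP1 RNA was listed on 25 of the 206 bins of the MBNL1 gene in LW replicate 2, and on 0 in LW replicate 1. PDZRN3 RNA was listed on 28 of them in MS replicate 2, and on 0 in MS replicate 1. Both counts were close to the median length of a single run of adjacent cis bins of these RNAs, 28 and 29 bins. They may thus stand for 1 run each.

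Bins listed for 2 or more members were 3183 of 32744 (9.72%) and 5325 of 44408 (12.0%) in LW, and 330 of 10566 (3.12%) and 1227 of 16806 (7.30%) in MS. Nearly all of this sharing involved MBNL1. Of the FOXP1 bins, 1395 and 1769 also held MBNL1 RNA, 43.2% and 45.3% of FOXP1's own bins in LW and 6.09% and 5.43% of MBNL1's. ZBTB20 shared 1279 and 2385 bins with MBNL1, 23.8% and 32.8% of its own. PDZRN3 shared 307 and 616 bins with MBNL1 in MS, 10.3% and 15.8% of its own, and ARPP21 shared at most 84 bins with MBNL1 in any library. Of the member pairs listed in a library, 6 of 10 in each LW library, 2 of 3 in MS replicate 1 and 5 of 6 in MS replicate 2 shared a bin, against 10.6%, 15.1%, 9.40% and 10.0% of all pairs of chromosome 13 RNAs. Without MBNL1 it was 2 of 6, 2 of 6, 0 of 1 and 2 of 3, against 6.27%, 11.4%, 6.46% and 7.56%. Of these pairs ZBTB20 and FILIP1L shared 319 and 565 bins in LW, and the others from 22 to 77 bins, each in 1 library. The members were not matched to the other RNAs in read or bin number. In cis bins they ranked 1st to 4th and 6th among chromosome 13 RNAs in both LW libraries, and 2nd to 5th in MS replicate 2.

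Likeness to other chromosome 13 RNAs was measured as the Jaccard index of the 10-kb bins, the shared bins over all bins of both RNAs, averaged over the libraries that list the member. Apart from FILIP1L, likeness was low. FILIP1L was most like the overlapping ENSSSCG00000049101, at 0.286 over 3 libraries. FOXP1 and ZBTB20 were most like MBNL1, at 0.057 and 0.065 over 2 libraries each.

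H3K27ac loops were next counted at the ends of the members' genes. A loop joins 5-kb anchors, and its strength was taken as −log10 of its FDR, so the score of a gene is the sum over its loops. For the 5 members with loops at a gene end, each loop lay at the end where transcription starts. ARPP21 had 9 and 11 loops in LW and 9 and 9 in MS, and their scores summed to 95.9 and 216 in LW, and to 73.0 and 179 in MS. These ends are those of the RefSeq gene, and the gene end in the RNA list lies elsewhere for ARPP21. With that end, an alternative chosen after seeing the data, its scores were 56.6 and 107 (LW) and 66.7 and 87.5 (MS), below those of PDZRN3 in all 4 libraries. PDZRN3 had 9 and 9 loops in LW, where its RNA was not listed, and 9 and 10 in MS, and the summed scores were 98.1 and 130 (LW) and 72.8 and 144 (MS). Within a breed these scores spread as widely as between breeds, with replicate 2 above replicate 1 in both.

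FOXP1, ZBTB20 and FILIP1L had lower scores than ARPP21 and PDZRN3 in every library. FOXP1 had 8 and 5 loops in LW and 8 and 5 in MS, and scored 27.9 and 18.7 (LW) and 33.8 and 24.9 (MS). ZBTB20 had 11 and 9 loops in LW and 8 and 7 in MS, and scored 52.6 and 79.0 (LW) and 27.7 and 41.9 (MS). FILIP1L had 8 and 9 loops in LW and 6 and 6 in MS, and scored 38.7 and 54.5 (LW) and 23.4 and 45.5 (MS). FOXP1 thus had as many loops in MS, where its RNA was not listed, as in LW.

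No gene of the 15431 tested differed between breeds at an adjusted p under 0.05 in limma on the quantile-normalized log2(score + 1), and DESeq2 gave none either. At unadjusted p under 0.05, 436 genes were higher in LW (2.83%) and 387 in MS (2.51%), all of them with a log2 difference over 1.5, and no member was among them. The log2 differences, LW minus MS, were -0.63 for FOXP1 (SE 0.77), 0.67 for ZBTB20 (SE 0.77), 0.24 for FILIP1L (SE 0.79), 0.14 for ARPP21 (SE 0.80) and -0.01 for PDZRN3 (SE 0.76). With SEs of this size, a log2 difference of 1.5 in either direction could not have been told from 0 for a gene with such loops. In normalized scores both LW libraries lay above both MS libraries for ZBTB20, as for 14.3% of genes, and both MS libraries above both LW libraries for FOXP1, as for 16.8%.

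**Figure D5:**
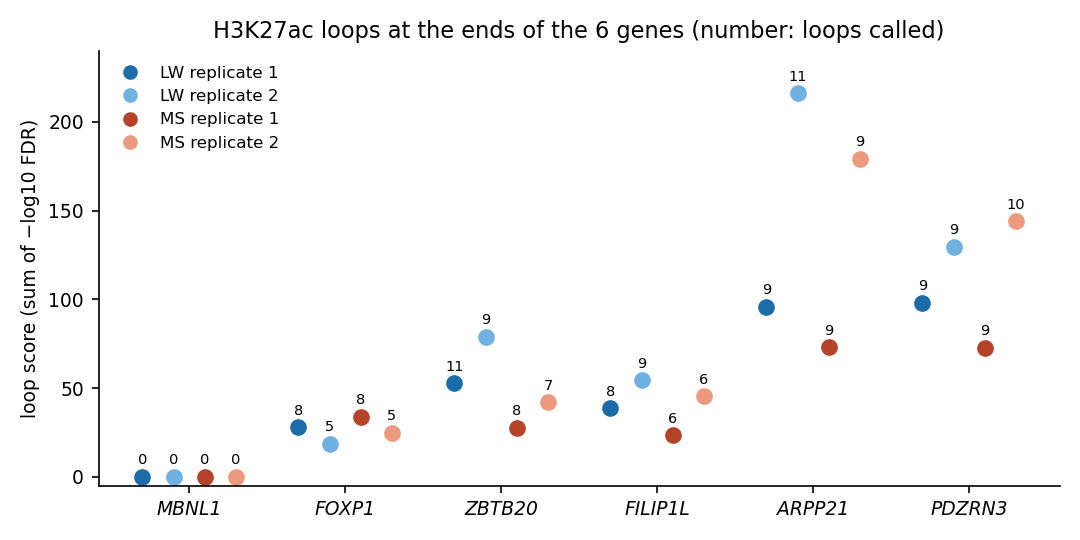
Loop score, the summed −log10 FDR of the loops at both gene ends, of the 6 members in the 4 BL-HiChIP libraries, 1 point per library with its number of loops above it. With RefSeq gene ends, as drawn, ARPP21 and PDZRN3 reached 216 and 144, MBNL1 was at 0 in all 4, and the replicates of a breed lay as far apart as the breeds at ARPP21 and PDZRN3.

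Individual loops with identical 5-kb anchors recurred at ARPP21 and PDZRN3. Of the 16 different loops seen at ARPP21, 5 were called in all 4 libraries, spanning 20, 40, 110, 125 and 250 kb, and of the 19 at PDZRN3, 3 were, spanning 35, 55 and 195 kb. FOXP1 with 19, ZBTB20 with 23 and FILIP1L with 18 different loops had none in all 4. A shift to a neighbouring anchor made a loop different in this count. At FOXP1, loops to the same far anchor spanned 580 kb in both LW libraries and 575 kb in both MS libraries. At ZBTB20, loops to the same far anchor spanned 745 kb in replicate 1 of each breed and 740 kb in replicate 2. Recurrence that allows such shifts was not counted, so these genes are not shown to lack recurring loops. The far anchors of FOXP1 and ZBTB20 loops lay inside the gene itself in 18 of 19 and 23 of 23 cases, while 12 of 16 at ARPP21 lay outside the RefSeq gene, which starts downstream of the start given in the RNA list. No far anchor of a loop called in all 4 libraries lay within 1 kb of another RefSeq gene end. The member's own RNA, where listed, was found on all 5 bins of each of these far anchors. Most of the anchors lay inside the gene, and the others 35.4 and 117 kb from ARPP21 and 190 kb from PDZRN3. Near its gene an RNA fills most bins, and the cover of the surrounding bins was not compared. The value therefore does not set the anchors apart from their surroundings.

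MBNL1, the member with the widest RNA, had no loop at either gene end in any library, also with a window of 5 kb. The anchor nearest to its start lay 18.2 kb into the gene in all 4 libraries. Loops with an anchor within the gene numbered 28 and 29 in LW and 12 and 15 in MS, with summed scores of 166 and 255 (LW) and 48.1 and 135 (MS), and 24, 24, 9 and 12 of them had both anchors inside. The anchor with most loops had its midpoint 25.7 kb from the start in 3 libraries, with 6 and 12 loops in LW and 12 in MS replicate 2. In MS replicate 1 it had its midpoint at 20.7 kb, with 5 loops. That was the anchor nearest to the start, whose near edge is the 18.2 kb given above. Counted over the whole gene, a measure added after the data were seen, the log2 difference for MBNL1 was 1.08 (LW minus MS, SE 0.76, limma adjusted p = 0.924). Of 64 different loops with an anchor in MBNL1, none was called in all 4 libraries, 4 in 3, 12 in 2 and 48 in 1. A shift to a neighbouring anchor made a loop different in this count. The highest-scoring loop spanned 30 kb in LW replicate 2 and both MS libraries, from the anchor 23.2 kb into the gene. In LW replicate 1 it spanned 35 kb from the same anchor. Recurrence that allows such shifts was not counted.

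MBNL1 RNA was also found on loop anchors away from its gene. Of its cis bins, 9.08% and 8.80% in LW and 13.6% and 14.2% in MS lay on anchors called in both libraries of the breed, which cover 3.74% and 3.05% of chromosome 13. Among the other chromosome 13 RNAs with at least 100 cis bins, numbering 16 and 19 (LW) and 8 and 19 (MS), the median was 10.5% and 10.2% (LW) and 12.3% and 12.4% (MS), and 7 and 7 (LW) and 4 and 13 (MS) of them lay below MBNL1. ZBTB20 stood at 11.6% and 11.08% in LW and FOXP1 at 4.50% and 4.02%. Beyond 10 Mb, where few FOXP1 bins lay, its share was 7.89% and 14.7%. ARPP21 stood at 6.33% and 5.41% in LW and at 7.95% and 8.21% in MS, and PDZRN3 came close to it in MS, at 8.56% and 8.22%.

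Genes related to the members were read in the same tables. Of 12 relatives of the members, ZBTB16, a zinc finger factor like ZBTB20, was the 1 listed in all 4 libraries, and its reads were higher in LW by 0.52 on the log2 scale (adjusted p = 2.0e-06). Among 14 splicing regulators of muscle 3 were tested, of which MBNL1 and QKI, a STAR-family RNA-binding protein with a log2 difference of 0.17, were higher in LW and HNRNPH1 at 0.02 did not pass, though it did at 0.14 with scaling by total reads.

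Genes whose exons MBNL1 is known to regulate went both ways in reads. Of 13, 7 were tested, and 4 were higher in LW, NFIX by 0.51, BIN1 by 0.41, LDB3 by 0.26 and PDLIM3 by 0.05. The other three were lower in LW, ATP2A1 at -0.59, CACNA1S at -0.07 and TNNT3 at -0.06, but scaling by total reads turned CACNA1S to 0.05 (not called) and TNNT3 to 0.07. Reads per RNA do not measure exon use. Of 14 transcription regulators 5 were tested, with MYOD1, the myogenic determination factor, higher in LW by 0.56, MEF2D by 0.43 and NFIX by 0.51, and FOXO1 at -0.54 and TEAD1 at -0.14 lower, the latter at -0.01 and no longer called with scaling by total reads. None of 8 neuromuscular synapse genes, the setting in which PDZRN3 is known, was listed. The median read difference of these lists was 0.17 for splicing regulators, 0.05 for MBNL1-regulated genes and 0.43 for transcription regulators, beside 0.002 for all 308 RNAs, and no gene of them passed the adjusted threshold in cis reach or loop score.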

How the data were processed

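The processed lists of 4 GRID-seq and 4 H3K27ac BL-HiChIP libraries were used. For GRID-seq the authors cut reads into RNA and DNA parts at the linker, aligned them to Sscrofa11.1 by Bowtie2 and kept chromatin-enriched RNAs. The deposited lists have no column names: from its values, 1 column was taken as the read count of an RNA and another as the signal in a 1-kb bin, corrected for background by the authors. For BL-HiChIP the authors trimmed linkers with ChIA-PET2, mapped with BWA-MEM, removed duplicates with Pairtools and called 5-kb loops per library with FitHiChIP. The deposited value per loop was read as a p-value adjusted for multiple testing (FDR), since every list ends just under 0.01.

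Reads were compared with edgeR 4.0.16 (quasi-likelihood, TMM), and cis bins as log2(bins + 1), cis shares and loop scores with limma 3.58.1 (R 4.3.3), over all features with Benjamini-Hochberg adjustment at 0.05. DESeq2 1.42.0 was an alternative. Loop scores were quantile normalized. All fits were tried on simulated data, with differences put in that were larger than those reported for the members. This does not show how the fits perform at the reported sizes. With 2 libraries a breed, an exact permutation test cannot go below p = 0.333. RefSeq positions on Sscrofa11.1 gave the gene ends and the GRID-seq lists the strands. No sequences were used. Besides the members, the text names the chromosome 13 RNAs most like each member, overlapping RNAs, and members of lists of related genes and of cell type markers. Results for 1 RNA that this rule names are not reported here. Members and lists were chosen with earlier results of these data known. Computations used Python 3.11.15, pandas 2.3.3 and matplotlib 3.10.9.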

Additional observations from a re-analysis of the deposited data

How the results depend on the processing

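Counts of RNAs called in reads kept within 1.5 times under every alternative, and MBNL1 and ARPP21 kept direction and call there, MBNL1 between 0.87 and 0.89 with 1 library left out. A fit with 0 for libraries that do not list an RNA is not given as a test, since those libraries are not shown to be at 0. RNAs called higher in LW in cis reach became 9 beyond 100 kb, 0 per 1000 reads, 0 with a pseudocount of 10, 4 after quantile normalization and 0 to 0 with 1 library left out, and those higher in MS became 1 beyond 100 kb and 7 after quantile normalization. MBNL1 was not called in any of these and ranged from 1.47 to 2.15 with 1 library left out. ARPP21 reach turned to 0.36 per 1000 reads, to 0.22 without LW replicate 1 and to 0.18 without MS replicate 2. A share of bins called 1 RNA higher in LW and turned MBNL1 to -2.33.

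For loop scores with a log2 difference over 1.5 at unadjusted p under 0.05, DESeq2 gave 100 genes higher in LW and 146 in MS, a mean score of at least 5 gave 230 and 172, no normalization gave 862 higher in LW, and a pseudocount of 0.1 gave 957 higher in MS. Leaving out 1 library gave 300.0 to 884 and 448 to 876, most without LW replicate 1 (LW) and MS replicate 2 (MS). No member was called. With 1 library left out, FILIP1L ranged from -0.20 (without MS replicate 1) to 0.64, ARPP21 from -0.23 (without MS replicate 1, and -0.17 without LW replicate 2) to 0.49 and PDZRN3 from -0.24 to 0.19 (without MS replicate 2, and 0.03 without LW replicate 2). PDZRN3 turned to 0.14 without normalization and to 0.066 at FDR of at most 0.001.

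Loops per library at the ends of the 6 genes, 44 in LW and 38.5 in MS, were 36.5 and 28.5 at FDR of at most 0.001, 55.5 and 46 with 5 kb, 263 and 199.5 over whole genes and 41.5 in LW with the list's gene ends (both chosen after seeing the data), and 43 to 45 and 37 to 40 with 1 library left out. Bins shared by members became 12.6% (LW) with 10-kb bins and 7.07% and 1.74% when listed in both libraries. MBNL1 bins on anchors of loops in either library came to 25.5% and 39.0%, and with 1 library left out to 17.5% to 22.0% and 26.9% to 32.3%, since more anchors then count. The causes of the other changes were not tested.

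Replicate numbers were shared across breeds, but 2 pairs cannot show pairing; deviations of same-numbered libraries correlated at 0.94 in reads, -0.05 in cis bins and 0.35 in loop scores. With the replicate block, reads gave 138 and 140 calls, cis reach 0 and 0, cis share 0 and 0, and loop scores 696 and 592 by the fold rule. The cis share of MBNL1 then had an adjusted p of 0.0811.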
